A study of Mus musculus with 18 samples.

Results

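The genes described here mark the cells of small blood vessels in mouse hippocampus, the brain region needed for spatial memory. They were chosen by name: 34 genes of endothelial cells, which line the vessel, and of mural cells, the pericytes and smooth muscle cells that wrap it. Of these, 32 had a probe set annotated to that 1 gene, and all 32 passed the filter on dim probe sets, among 13121 named genes in all. They were counted as 24 endothelial and 8 mural genes, with Mcam, an adhesion gene, placed among the endothelial ones. Ly6a had no probe set of its own in the annotation used, and the only probe set for Ly6c1 is annotated to Ly6c2 as well, so it is described separately and counted nowhere. Total RNA was measured on 18 arrays: 6 from young hippocampus, 6 from aged hippocampus labelled unimpaired in spatial memory and 6 from aged hippocampus labelled impaired. The labels name no strain, sex or age, and do not say whether a sample was 1 mouse or a pool. A p-value here thus rests on the spread from sample to sample, which can be technical in part.

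Brain capillaries form the blood-brain barrier. Endothelial cells seal their borders with tight junction proteins such as claudin 5 and occludin, move glucose, monocarboxylates and hormones inward through dedicated transporters, and pump many drugs back into the blood. Pericytes sit in the basement membrane around capillaries and help keep the barrier closed, while smooth muscle cells of arterioles contract and set local flow. All these cells are a small share of hippocampal tissue, so each value below is a level in the whole tissue, and fewer cells of a type cannot be told apart from less RNA per cell.

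The values are log2 of the scaled probe set signal plus 16, on which a difference of 1 is a doubling. A probe set was called where the limma fit to all tested probe sets gave a Benjamini-Hochberg adjusted p under 0.05, and "rose" or "fell" is used of called genes only. The median SD among samples of 1 group was 0.184 over all named genes, 0.215 over the endothelial members and 0.301 over the mural members. The closest other array to each array correlated with it at 0.976 to 0.983. Among the means taken over markers of other cell types, the choroid plexus mean, over 16 tested markers, varied most between samples. It lay between 6.70 and 7.36 on 5 arrays (aged impaired 5, aged unimpaired 3, 4 and 5, and young 6). On the other 13 it was at 8.70 or above. Markers of other cell types are set beside the results they move with. The T cell list had 6 named genes and none passed the filter, and of the erythroid list 2 of 8 were tested.

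Among the 32 genes, 1 changed between aged and young hippocampus. Slc2a1, which encodes the glucose transporter GLUT1 of the barrier, rose. It was called for aged impaired against young, beside 1.63% of all tested probe sets. For both aged groups against young it was also called, beside 0.947% of all. Each call was lost under some of the alternatives given below. No member was called in either direction between aged impaired and aged unimpaired hippocampus, or between aged unimpaired and young. Of all tested probe sets, 0.0111% and 0.137% were called there.

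Slc2a1 had levels of 10.97, 11.07 and 11.25 in young hippocampus (lowest, median and highest of 6). In aged unimpaired hippocampus the levels were 11.33, 11.42 and 11.51, and in aged impaired hippocampus 11.25, 11.47 and 11.79. All 6 aged unimpaired samples lay above every young sample, and 5 of 6 aged impaired samples did. The difference between aged impaired and young was 0.41 ± 0.08 (standard error), a 1.33-fold higher signal with an adjusted p of 0.0188. With both aged groups joined it was 0.37 ± 0.07, with an adjusted p of 0.0187. Between aged unimpaired and young the difference was 0.33 ± 0.08, with an adjusted p of 0.177, and between the aged groups it was 0.08 ± 0.08, with an adjusted p of 0.84. The gene has 2 further tested probe sets, both higher in each aged group. One gave 0.37 ± 0.09 for aged impaired against young, with an adjusted p of 0.047, and the other 0.26 ± 0.08, with an adjusted p of 0.121.

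Slc2a1 is also made outside vessels, in astrocytes and choroid plexus, and microglia markers rose with age. The microglia mean over 11 markers was 9.90 to 10.22 in young, 10.35 to 10.91 in aged unimpaired and 10.48 to 10.92 in aged impaired hippocampus. It was higher by 0.49 in both aged groups (exact permutation p = 5.39e-05, the smallest that 12 against 6 samples can give; adjusted p = 0.00151 over 28 such tests), and its part in the Slc2a1 result was not tested. The fibroblast and meningeal mean over 18 markers was lower by 0.57 in the aged groups (exact permutation p = 0.015, adjusted p = 0.0779). With that mean as a covariate, the Slc2a1 difference between aged impaired and young was 0.47, with an adjusted p of 0.00871. With the choroid plexus mean as the covariate instead, that difference was 0.41, with an adjusted p of 0.0169. Over both aged groups it was then 0.39, with an adjusted p of 0.0136. Since the fibroblast and meningeal mean was lower in the aged groups, group and covariate cannot be fully told apart in the fit that held it. The astrocyte mean over 10 markers differed by 0.069 between both aged groups and young (exact permutation p = 0.113, adjusted p = 0.316). The oligodendrocyte mean over 5 markers was higher by 0.35 in aged impaired than in young hippocampus (exact permutation p = 0.013, adjusted p = 0.0779) and by 0.38 with quantile normalization, where it passed with an adjusted p of 0.0114. Its part in the Slc2a1 result was not tested. The call between aged impaired and young was lost without young replicate 6 (adjusted p = 0.0505), with only the 2 groups in the fit (0.0678), with no filter (0.0543) and on the 13 arrays of high choroid plexus signal (0.0923). Over both aged groups it was lost without young replicate 5 (0.0527) or 6 (0.0608), with no filter (0.0516) and on those 13 arrays (0.165). The size of the difference stayed between 0.28 and 0.47 under the alternatives tried for these 2 comparisons.

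The 250 bases before the RefSeq start site (assembly GRCm38.p6) are shown for Slc2a1, the one member that rose, and for Cldn5, the member of lowest p between the aged groups, so that the start of each gene can be seen beside its values. Capitals mark GC boxes, matches to GGGCGG on either strand, here each time on the minus strand, where the printed letters read CCGCCC.
Slc2a1 (chr4:119108495-119108744, plus strand): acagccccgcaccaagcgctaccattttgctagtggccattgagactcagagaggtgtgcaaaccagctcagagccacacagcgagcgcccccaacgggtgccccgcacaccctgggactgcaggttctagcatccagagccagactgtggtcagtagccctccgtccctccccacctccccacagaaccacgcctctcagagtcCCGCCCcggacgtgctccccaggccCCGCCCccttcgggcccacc
Cldn5 (chr16:18776597-18776846, plus strand): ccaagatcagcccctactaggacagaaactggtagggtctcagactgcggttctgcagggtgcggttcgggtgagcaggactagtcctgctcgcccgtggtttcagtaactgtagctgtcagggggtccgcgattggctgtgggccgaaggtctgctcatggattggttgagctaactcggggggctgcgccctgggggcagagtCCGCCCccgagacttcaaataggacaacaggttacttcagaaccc
The Slc2a1 window holds GC boxes at 45 to 40 and at 20 to 15 bases before the start, and the Cldn5 window holds 1, at 45 to 40 bases. Of 32851 promoter windows of this length, 32.7% hold a GC box. Slc2a1 also has the core of the hypoxia response element, ACGTG, at 36 to 32 bases on the plus strand, a match found on either strand in 16.6% of windows. The ETS core, GGAA, has no match on either strand in the Slc2a1 and Cldn5 windows and is found in 93.4% of all windows, which says only that these letters are not in these 250 bases. These matches describe letters in the windows, and binding was not measured.

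The shared Ly6c2 and Ly6c1 probe set followed a similar order of groups. Ly6C proteins are surface antigens, Ly6c1 of endothelial cells and Ly6c2 of monocytes, and the signal cannot be assigned to either gene. Its levels were 10.70, 10.78 and 10.89 in young, 11.17, 11.20 and 11.28 in aged unimpaired and 10.91, 11.25 and 11.73 in aged impaired hippocampus. All 12 aged samples lay above all 6 young samples, a separation found in 0.303% of all tested probe sets. Both aged groups exceeded young by 0.45 ± 0.10, with an adjusted p of 0.0405, and aged impaired exceeded young by 0.49 ± 0.12, with an adjusted p of 0.041. The difference between aged unimpaired and young was 0.42 ± 0.12, with an adjusted p of 0.252, and it was called with only these 2 groups in the fit, with an adjusted p of 0.0151. The call against young was lost under 18 of 29 alternatives for aged impaired and under 16 of 28 for both aged groups, with adjusted p-values up to 0.128 and 0.219. For aged impaired these included leaving out aged impaired replicate 1, 2 or 6, aged unimpaired replicate 1, 3, 4 or 5, or any young sample, and for both aged groups leaving out aged impaired replicate 2 or 6, aged unimpaired replicate 1, 3, 4, 5 or 6, or any young sample. The microglia markers given above moved the same way, and their part in this result was not tested.

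**Figure D1:**
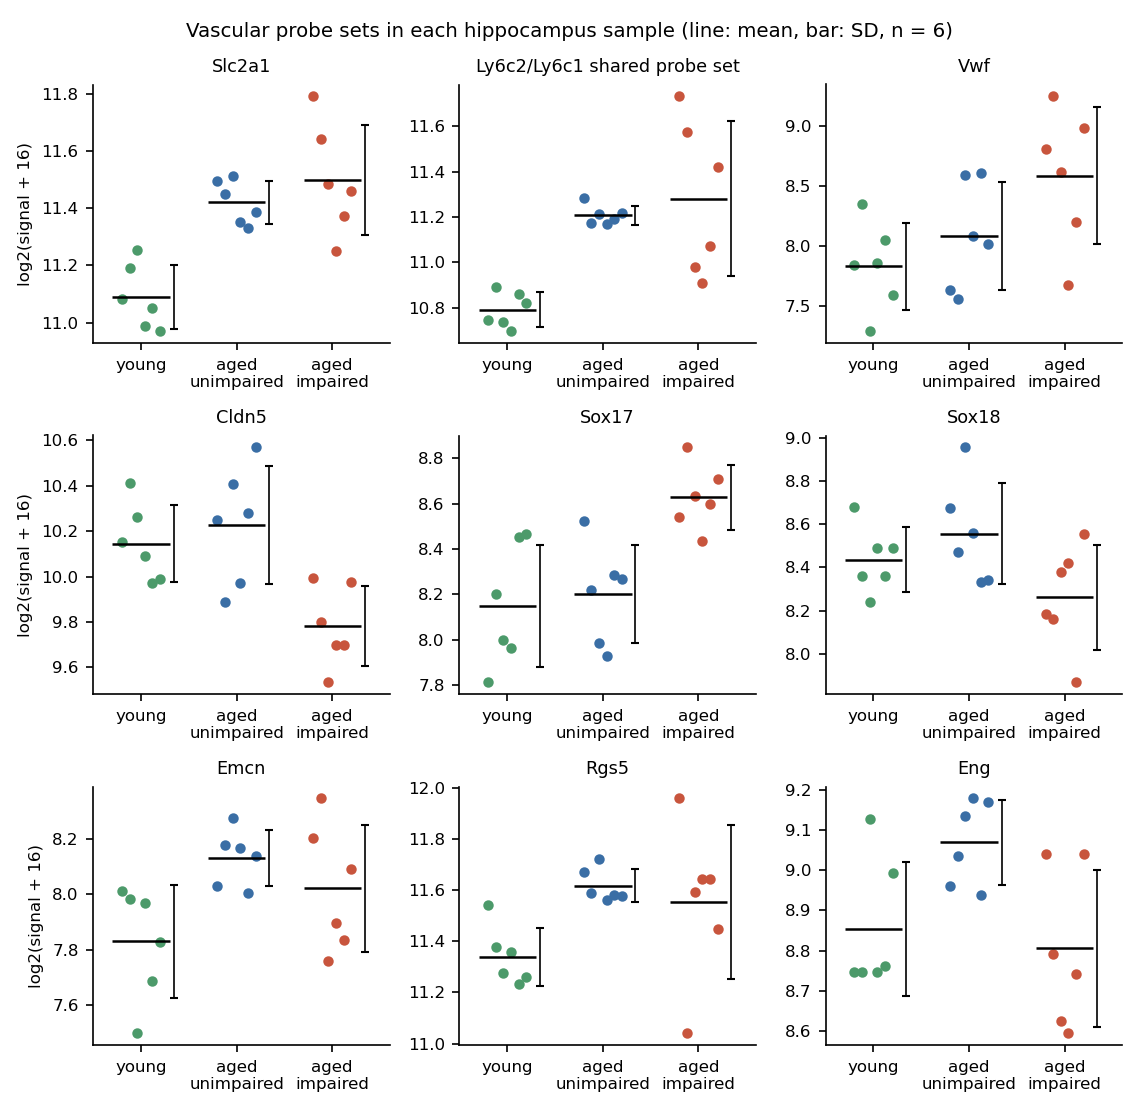
Level of 8 vascular genes and of the shared Ly6c2 and Ly6c1 probe set in each of the 18 hippocampus samples, on the log2(signal + 16) scale, by group; lines are means and bars SD of 6 samples. All 12 aged samples of the shared probe set lie above the young ones, the 6 aged unimpaired samples do so for Slc2a1 and Rgs5, and the other panels overlap between each pair of groups.

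Aged impaired and aged unimpaired hippocampus were compared to ask which transcripts differ with spatial memory at old age. In this comparison limma called 0.0111% of the 27022 tested probe sets and none of the 32 members. At an unadjusted p under 0.05 there were 4 members, and 8.09% of all tested probe sets. Of the members, 13 were higher and 19 lower in aged impaired hippocampus, with a median difference of -0.023 against 0.0058 over all probe sets. The 4 were Cldn5, Sox17, Eng and Sox18, and Abcg2 and Vwf came next by p. No member separated the aged groups fully, which 0.525% of all tested probe sets did. The mean of 5 oligodendrocyte markers was 12.48 to 12.99 in aged unimpaired and 12.90 to 13.31 in aged impaired hippocampus, higher by 0.27 in the latter (exact permutation p = 0.0195, adjusted p = 0.0779). With quantile normalization this difference was 0.28 and passed, with an adjusted p of 0.0114. Its part in the values below was not tested.

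Cldn5 encodes claudin 5, the main tight junction claudin of brain endothelium. Its levels were 9.97, 10.12 and 10.41 in young, 9.89, 10.27 and 10.57 in aged unimpaired and 9.53, 9.75 and 9.99 in aged impaired hippocampus. The aged impaired samples were the low ones, and 4 of 6 lay below every aged unimpaired sample. The difference between the aged groups was -0.44 ± 0.12, a 1.36-fold lower signal with an adjusted p of 0.305. Against young it was -0.36 ± 0.12, with an adjusted p of 0.131. Its adjusted p between the aged groups ranged from 0.186 to 0.536 over 30 alternatives, all with a lower level in aged impaired hippocampus.

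The SoxF transcription factors Sox17 and Sox18 act together in endothelial and arterial specification, and their differences between the aged groups had opposite signs. Sox17 had levels of 7.81, 8.10 and 8.46 in young, 7.93, 8.24 and 8.52 in aged unimpaired and 8.43, 8.62 and 8.85 in aged impaired hippocampus. Here 5 of 6 aged impaired samples exceeded every sample of either other group. The difference was 0.43 ± 0.12 against aged unimpaired, with an adjusted p of 0.366, and 0.48 ± 0.12 against young, with an adjusted p of 0.0574. The latter passed under 6 of 30 alternatives, with adjusted p-values of 0.0309 to 0.121 over all of them. Its second probe set gave 0.29 ± 0.16 and 0.38 ± 0.16 for these comparisons, with adjusted p-values of 0.676 and 0.25. On that probe set 2 of 6 aged impaired samples exceeded every aged unimpaired sample, and 3 of 6 exceeded every young sample.

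Sox18 had levels of 8.24, 8.42 and 8.68 in young, 8.33, 8.52 and 8.96 in aged unimpaired and 7.87, 8.28 and 8.55 in aged impaired hippocampus. The groups overlapped, and 3 of 6 aged impaired samples lay below every aged unimpaired sample. The difference between the aged groups was -0.30 ± 0.12, with an adjusted p of 0.552. Ets1, the remaining transcription factor of the list, differed by -0.03 ± 0.15 between them. Its level is given on 1 of 3 tested probe sets that disagree: it differed from young by 0.03 ± 0.13 over both aged groups there, and by -0.59 ± 0.22 and -0.14 ± 0.12 on the others, none called. The probe set with -0.59 was dim, with means of 5.95 in aged and 6.54 in young samples. The lowest mean among all tested probe sets was 5.92, and whether this one lay above background was not tested.

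Eng encodes endoglin, a co-receptor for TGF-beta and BMP ligands on endothelium. The levels were 8.75, 8.75 and 9.13 in young, 8.94, 9.09 and 9.18 in aged unimpaired and 8.59, 8.77 and 9.04 in aged impaired hippocampus. The aged unimpaired samples were the high ones, and 4 of 6 aged impaired samples lay below all of them. The difference was -0.26 ± 0.10 between the aged groups, with an adjusted p of 0.495, and 0.22 ± 0.10 between aged unimpaired and young, with an adjusted p of 0.564. Its second probe set gave -0.07 ± 0.11 and 0.15 ± 0.11. Tek and Tie1 are the receptor pair of the angiopoietin pathway. Tek was at 7.53 to 8.02 in young, 7.81 to 8.49 in aged unimpaired and 7.37 to 8.25 in aged impaired hippocampus, with a difference of 0.26 ± 0.13 between aged unimpaired and young and an adjusted p of 0.641. Tie1 differed by at most 0.25 ± 0.24 in the 4 comparisons.

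Vwf encodes von Willebrand factor, the clotting protein stored in endothelial granules. It had levels of 7.29, 7.85 and 8.35 in young, 7.56, 8.06 and 8.61 in aged unimpaired and 7.67, 8.71 and 9.25 in aged impaired hippocampus. The aged impaired group reached highest, with 4 of 6 samples above every sample of the other groups, and its SD of 0.57 was wide. Its difference from young was 0.76 ± 0.25, with an adjusted p of 0.145, and from aged unimpaired 0.50 ± 0.25, with an adjusted p of 0.636. Abcg2, a drug efflux pump, was at 8.90 to 9.41 in aged impaired, 8.95 to 9.12 in aged unimpaired and 8.94 to 9.12 in young hippocampus. Its difference between the aged groups was 0.16 ± 0.08, with an adjusted p of 0.63.

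**Figure D2:**
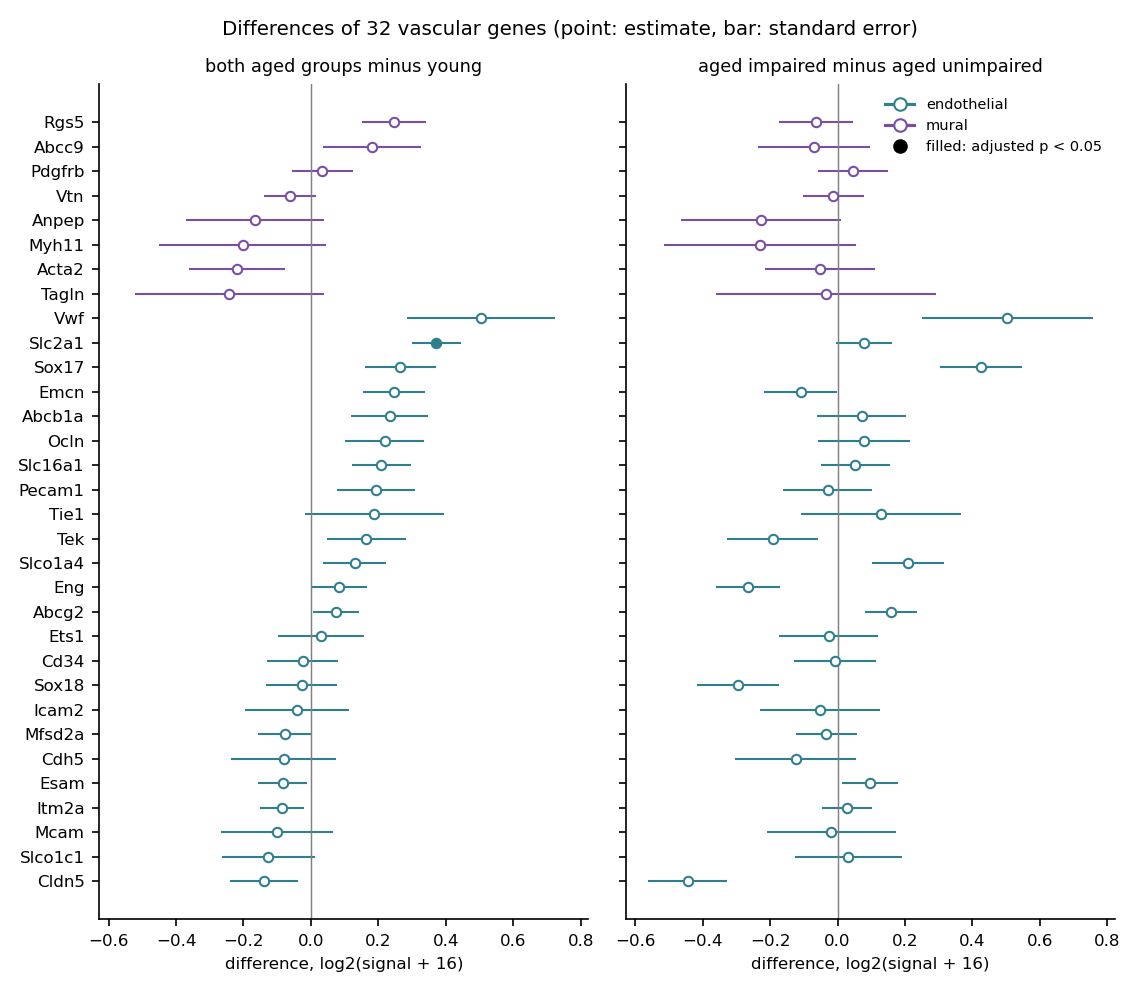
Difference of each of the 32 tested members on the log2(signal + 16) scale, both aged groups minus young at left and aged impaired minus aged unimpaired at right, endothelial genes in teal and mural genes in purple; points are estimates, bars standard errors, and filled points have an adjusted p under 0.05. The one filled point is Slc2a1 at left, at 0.37, and at right Vwf and Sox17 lie farthest above 0 and Cldn5 farthest below.

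The comparisons of the aged groups with young share the young samples, so their values stand side by side and are not independent. Between aged unimpaired and young, 0.137% of all tested probe sets were called and 0 of 32 members, with 4 members at an unadjusted p under 0.05 beside 8.19% of all. Between aged impaired and young, 1.63% were called, 1.03% with a higher level in aged impaired hippocampus, and of the members Slc2a1 alone, with 6 at an unadjusted p under 0.05 beside 15.8%. For both aged groups against young these were 0.947%, 0.614% with a higher level in the aged groups, again Slc2a1 alone, and 6 members beside 13.4%. Members higher in the aged samples numbered 18, 16 and 17 of 32 in these 3 comparisons, beside 45.8%, 47.5% and 45.8% of all tested probe sets. Groups without overlap were found for no member between aged impaired and young, beside 2.01% of all. The medians of the members were 0.034, -0.0055 and 0.032 in the same order, against -0.014, -0.010 and -0.014 over all probe sets. Each median of the members lay above that of all probe sets, by less than 0.05.

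Of the 7 transporters, 5 were higher in aged impaired than in young hippocampus, and of these Slc2a1 was called. Slc16a1, the monocarboxylate transporter MCT1 for lactate and ketone bodies, was at 10.62, 10.86 and 11.02 in young, 10.77, 11.11 and 11.27 in aged unimpaired and 10.86, 11.05 and 11.32 in aged impaired hippocampus. The groups overlapped. Its difference was 0.24 ± 0.10 between aged impaired and young, with an adjusted p of 0.265, and 0.18 ± 0.10 between aged unimpaired and young, with an adjusted p of 0.672. The oligodendrocyte mean was higher by 0.35 in aged impaired than in young hippocampus (exact permutation test, adjusted p = 0.0779). Its part in the Slc16a1 values was not tested. Slco1a4, an organic anion transporter of the barrier, was at 9.75, 10.05 and 10.15 in young, 9.82, 10.01 and 10.21 in aged unimpaired and 9.86, 10.31 and 10.45 in aged impaired hippocampus. In aged impaired samples 4 of 6 exceeded every young sample, and the difference was 0.23 ± 0.11, with an adjusted p of 0.301.

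With the fibroblast and meningeal mean as a covariate, which was lower in aged tissue as given above, these transporters passed the threshold in aged impaired against young: Slc16a1 at 0.37, with an adjusted p of 0.039, and Slco1a4 at 0.39, with an adjusted p of 0.0281. For both aged groups against young, Slc16a1 also passed, at 0.36 with an adjusted p of 0.0455. That fit called 1024 probe sets between aged impaired and young, against 440 without the covariate. The covariate mean itself differed by -0.50 between these groups (exact permutation p = 0.0584, adjusted p = 0.205). Group and covariate thus cannot be fully told apart in such a fit. Of the remaining transporters, Abcb1a, the P-glycoprotein efflux pump, differed between aged impaired and young by 0.27 ± 0.13 on one probe set and -0.02 ± 0.15 on another. Slco1c1, which carries thyroxine, differed by -0.11 ± 0.16, and Mfsd2a, a lipid transporter that restrains transcytosis, by -0.09 ± 0.09.

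The junction and adhesion genes other than Cldn5 had small differences with age. Over both aged groups against young, Ocln, Cdh5, Pecam1, Esam, Icam2 and Mcam had differences between -0.10 ± 0.17 (Mcam) and 0.22 ± 0.12 (Ocln), and none was called. They encode occludin, VE-cadherin, the platelet endothelial adhesion molecule, and 3 further adhesion molecules of the immunoglobulin family. A second Ocln probe set went the other way, at -0.17 ± 0.15. Emcn encodes endomucin, a sialomucin of capillary and venous endothelium. It was at 7.50, 7.90 and 8.01 in young, 8.004, 8.15 and 8.27 in aged unimpaired and 7.76, 7.99 and 8.35 in aged impaired hippocampus. The aged unimpaired samples were mostly above the young ones, 5 of 6 exceeding all of them, and the aged impaired samples overlapped both. Its difference from young was 0.30 ± 0.11 for aged unimpaired, with an adjusted p of 0.433, and 0.25 ± 0.09 for both aged groups, with an adjusted p of 0.251. Itm2a, a membrane protein of endothelium, was at 11.77 to 12.08 in young, 11.63 to 11.93 in aged unimpaired and 11.78 to 11.96 in aged impaired hippocampus. It differed from young by -0.09 ± 0.06 over both aged groups, with an adjusted p of 0.60, and its second probe set by -0.16 ± 0.06. Cd34, a sialomucin of endothelium and progenitor cells, differed by -0.02 ± 0.11.

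Of the 5 pericyte genes, 3 were higher and 2 lower in the aged groups together than in young, none called. Rgs5, a regulator of G-protein signalling that marks pericytes, was at 11.23, 11.32 and 11.54 in young, 11.56, 11.58 and 11.72 in aged unimpaired and 11.04, 11.62 and 11.96 in aged impaired hippocampus. Aged unimpaired samples all lay above the young ones, while the aged impaired group spanned the widest range and held the lowest and the highest sample. The difference was 0.28 ± 0.11 for aged unimpaired against young, with an adjusted p of 0.498, and 0.25 ± 0.09 for both aged groups, with an adjusted p of 0.264. Its 3 further tested probe sets gave 0.16 to 0.28 for aged unimpaired against young. Together with Slc2a1, Rgs5 made 2 of 32 members whose aged unimpaired and young samples did not overlap, beside 0.766% of all tested probe sets. The potassium channel subunit gene Abcc9 differed by 0.18 ± 0.14 over both aged groups, and Pdgfrb, the receptor that recruits pericytes, by 0.03 ± 0.09. Vtn, which encodes vitronectin, differed by -0.06 ± 0.08, and Anpep, which encodes aminopeptidase N, by -0.17 ± 0.20. The second probe set of Vtn gave -0.20 ± 0.09 and that of Pdgfrb -0.04 ± 0.26, neither called.

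Tie1, Anpep and Myh11 were dim, with mean levels of 6.35, 6.49 and 6.58, below the 6.80 that Xist, an RNA of the inactive X chromosome, reached at its highest. Since the labels name no sex, that Xist level is only a point of reference and no measure of background. Whether these 3 genes lay above background was not tested. The 3 smooth muscle contractile genes were each lower in every comparison, none called. Acta2, smooth muscle actin, was at 9.69, 9.81 and 10.50 in young, 9.46, 9.68 and 10.33 in aged unimpaired and 9.33, 9.71 and 9.99 in aged impaired hippocampus. The 3 groups overlapped widely. Both aged groups differed from young by -0.22 ± 0.14 for Acta2, -0.24 ± 0.28 for Tagln, which encodes the actin-binding protein transgelin, and -0.20 ± 0.25 for Myh11, the smooth muscle myosin heavy chain. The adjusted p-values were 0.534, 0.762 and 0.774. The mean of the fibroblast and meningeal markers, which also had a negative difference, was 7.88 to 8.80 in young, 7.26 to 8.32 in aged unimpaired and 7.01 to 8.30 in aged impaired hippocampus.

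Variation among samples of 1 group was described by the slope of each probe set on a reference level, with the 3 group means held in the fit. On Cldn5, 24 of the 31 other members had a positive slope, beside 49.3% of all tested probe sets, and the median slope was 0.24 against -0.0052. None was called, beside 0.0037% of all, and 7 members had an unadjusted p under 0.05, beside 6.59% of all, each with a positive slope. They included the mural genes Acta2, with a slope of 0.97 ± 0.28 (adjusted p = 0.654), Vtn, with 0.53 ± 0.15, Tagln, with 1.82 ± 0.58, and Myh11, with 1.25 ± 0.56. The endothelial ones were Slc16a1, Icam2 and Abcg2, with slopes of 0.35 to 0.82. The non-members most like Cldn5, by the p of a positive slope over 18 samples, were Fzd8 (1.51 ± 0.22, adjusted p = 0.0314), Gbp7, Pik3ap1, Pmpcb and H2-K1, of which only Fzd8 was called. Mean levels of Fzd8 were 6.95 in young, 6.39 in aged unimpaired and 6.77 in aged impaired hippocampus. They lay near or below the highest Xist level of 6.80, and whether Fzd8 lay above background was not tested. Tagln, of the members above, ran from 6.07 to 8.04, so some of its samples also lay below that Xist level.

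On Acta2, 23 of 31 other members had a positive slope, beside 48.7% of all tested probe sets. The share of all probe sets called was 0.0%, no member was called, and 4 had an unadjusted p under 0.05, beside 5.27% of all. These were Tagln, with a slope of 1.44 ± 0.36 (adjusted p = 0.707), Cldn5, with 0.46 ± 0.14, Vtn, with 0.34 ± 0.11, and Tek, with 0.50 ± 0.17. The non-members most like Acta2 were Myl9, Ifit1, Cdkn2c, Psmb8 and Ifitm3. Myl9, the smooth muscle myosin light chain, had a slope of 0.75 ± 0.12, with an adjusted p of 0.147.

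**Figure D3:**
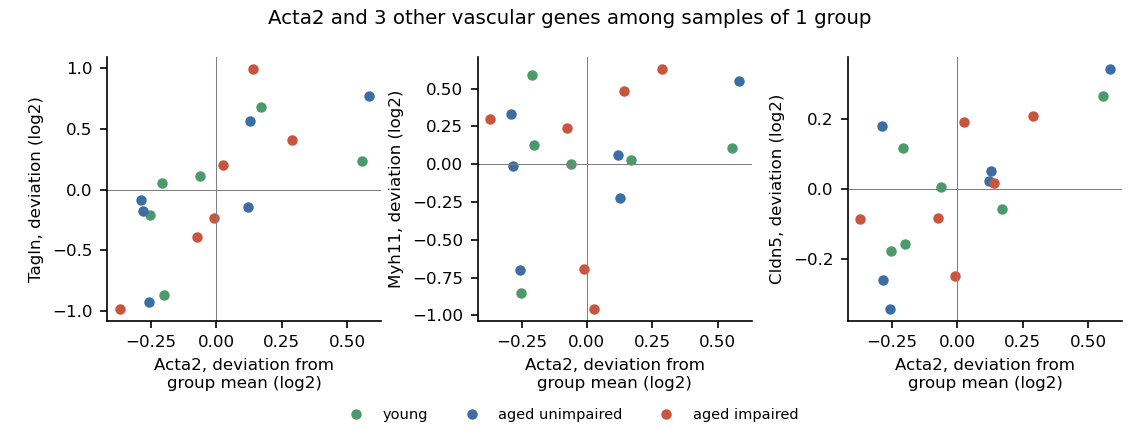
Deviation of Tagln, Myh11 and Cldn5 from their group mean against that of Acta2, in log2 units, one point per sample, coloured by group. Tagln has a slope of 1.44 ± 0.36 on Acta2 over the 18 samples, Cldn5 has 0.46 ± 0.14, and Myh11 scatters widely; none of these slopes was called.

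Neighbouring tissue varied between samples, so slopes were also taken on the choroid plexus and the fibroblast and meningeal means. On the choroid plexus mean 1.42% of all tested probe sets and 1 of 32 members were called, Slco1c1, with a slope of 0.19 ± 0.03 and an adjusted p of 7.65e-04. Slco1c1 encodes OATP1C1, which takes up thyroxine at the blood-brain barrier and is also made in choroid plexus. Its levels were 10.61, 10.93 and 11.31 in young, 10.56, 10.74 and 11.25 in aged unimpaired and 10.29, 10.89 and 11.21 in aged impaired hippocampus. Within each group, the samples high in choroid plexus markers were mostly those high in Slco1c1. It was called under all 26 alternatives, with slopes of 0.17 to 0.35, the latter on the 13 arrays of high choroid plexus signal. Of the 32 members, 19 had a positive slope, beside 52.8% of all tested probe sets, and 5 had an unadjusted p under 0.05, beside 10.6% of all. The next members by p were Ocln, with 0.13 ± 0.03 (adjusted p = 0.099), and Slco1a4, with 0.10 ± 0.03 (adjusted p = 0.113). On the 13 arrays of high choroid plexus signal the Ocln slope was 0.38 ± 0.06 and was called, with an adjusted p of 0.0227, and the Slco1a4 slope was 0.20 ± 0.08, with an adjusted p of 0.478. Those 13 arrays were chosen after seeing the data, and Ocln was called under 1 of 26 alternatives. Its second probe set had a slope of 0.07 ± 0.06 over all 18 samples, with an adjusted p of 0.752. Without aged impaired replicate 4, Slco1a4 was called at 0.096, with an adjusted p of 0.0449.

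On the fibroblast and meningeal mean 1.28% of all probe sets were called, and of the members Slco1c1 again, with a slope of 0.52 ± 0.12 and an adjusted p of 0.039. That call held under 11 of 26 alternatives and was lost under 15, with adjusted p-values up to 0.402. Among them it was lost without any 1 of aged impaired replicates 1 to 5, aged unimpaired replicates 1, 3, 4 and 6, or young replicates 3 and 6. The choroid plexus and fibroblast means were fitted one at a time, and their shares in Slco1c1 were not tested apart. Of the 32 members 24 had a positive slope, beside 52.4% of all, and 9 had an unadjusted p under 0.05, beside 14.4% of all. Tagln had 0.95 ± 0.27 (adjusted p = 0.0975), Acta2 0.42 ± 0.15, Slco1a4 0.32 ± 0.09 and Ocln 0.37 ± 0.12, while Cd34 had -0.32 ± 0.11.

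**Figure D4:**
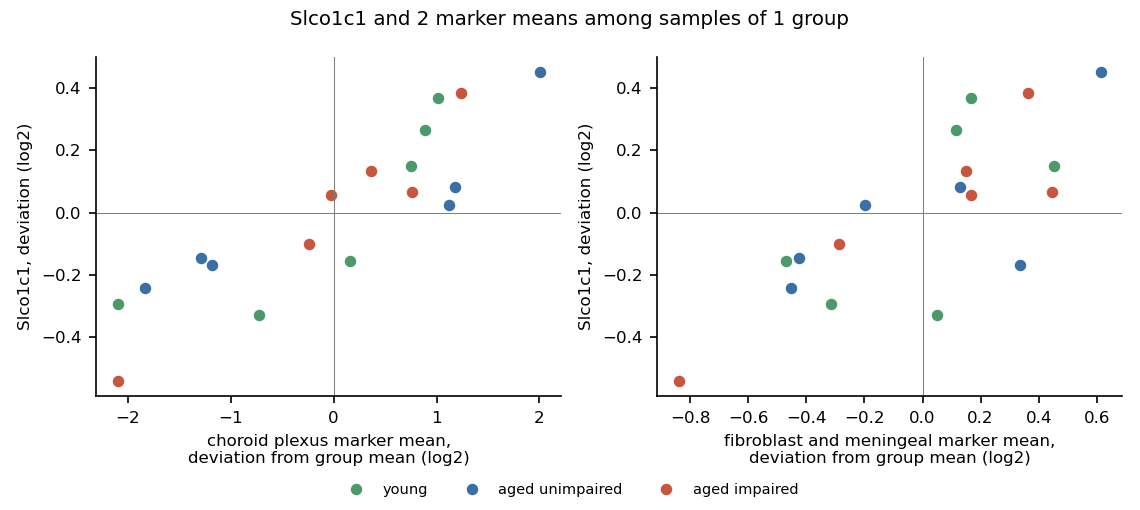
Deviation of Slco1c1 from its group mean against that of the choroid plexus marker mean (left) and the fibroblast and meningeal marker mean (right), in log2 units, one point per sample, coloured by group. Slco1c1 rises with the choroid plexus mean in each group with a slope of 0.19 ± 0.03, and with the fibroblast mean with a slope of 0.52 ± 0.12 and more scatter.

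**Figure D5:**
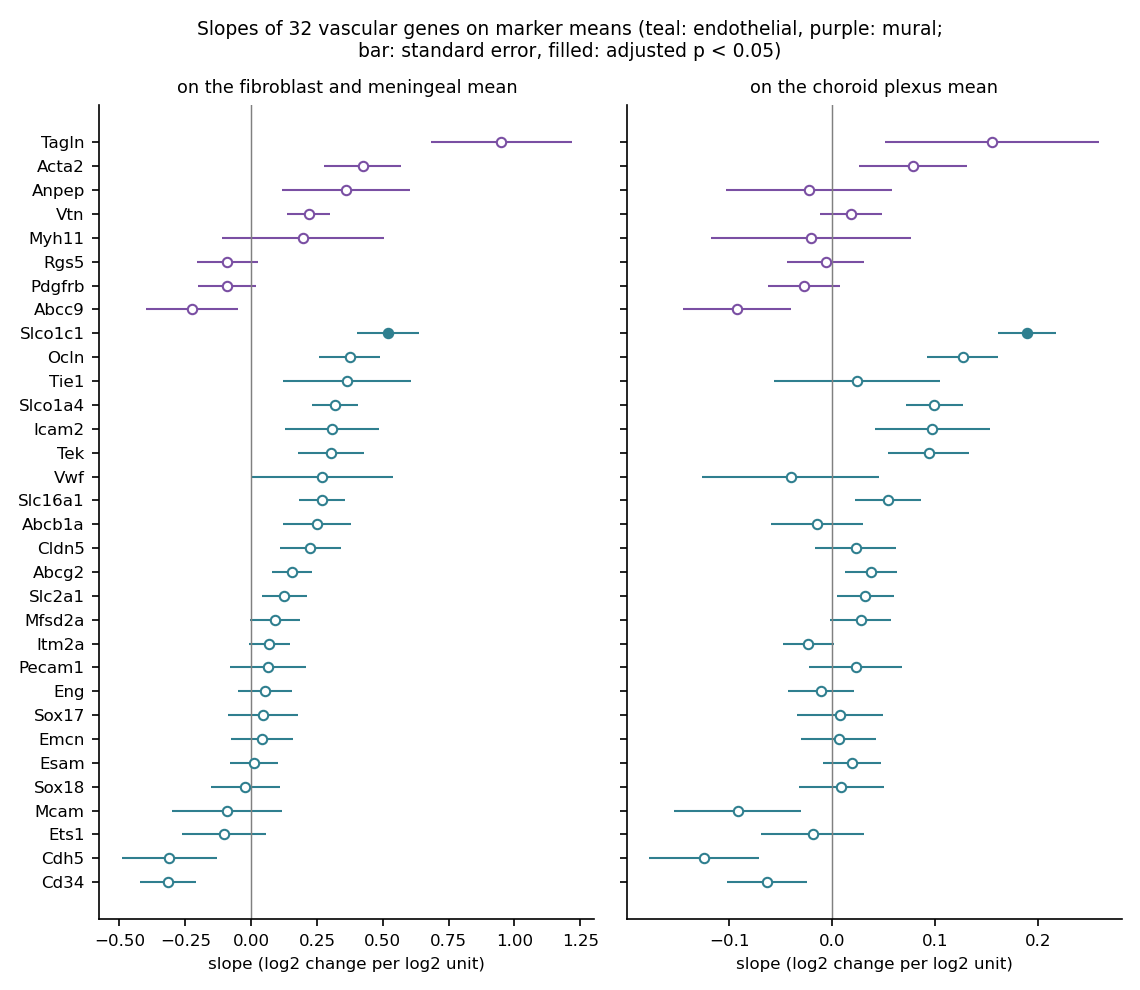
Slope of each of the 32 members on the fibroblast and meningeal mean (left) and on the choroid plexus mean (right), as log2 change per log2 unit, with standard errors; endothelial genes in teal, mural genes in purple, and filled points with an adjusted p under 0.05. Slco1c1 is the filled point on each side, and Tagln and Acta2 lie at 0.95 and 0.42 on the left.

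Wider lists of vascular genes were counted in the same fits. Of 70 further endothelial genes 63 were tested and none was called in any of the 4 comparisons. Between aged impaired and young 39 were higher and 24 lower, with a median of 0.11, and 17 had an unadjusted p under 0.05, beside 15.8% of all tested probe sets. Those of lowest p were Icam1, the leukocyte adhesion molecule, higher by 0.92 ± 0.23 (adjusted p = 0.0567), the taurine transporter Slc6a6, by 0.48 ± 0.14 (0.0876), the granule proteoglycan Srgn, by 0.54 ± 0.16 (0.0915), and the adhesion receptor Adgrf5, by 0.44 ± 0.13 (0.0959). Each of these 4 was higher than the young mean in 6 of 6 aged impaired samples. Icam1 was dim in young hippocampus, with a mean of 6.39, below the 6.80 that Xist reached at its highest. Its mean was 7.30 in aged impaired hippocampus, and whether it lay above background was not tested. Icam1 and Srgn are also made by microglia and other leukocytes, whose markers moved the same way as given above, and the part of those cells was not tested. Between the aged groups 47 of the 63 were higher in aged impaired hippocampus, beside 51.8% of all tested probe sets, with a median of 0.059 and 3 at an unadjusted p under 0.05: Tfrc, Slc6a6 and Fzd4.

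Of 30 further mural genes 27 were tested and none was called. Over both aged groups against young, 14 were higher and 13 lower, with a median difference of 0.0041. Of lowest p there, the transcription factor Tbx18, which marks pericytes and smooth muscle, differed by -0.44 ± 0.12, with an adjusted p of 0.109. Its level was below the young mean in 12 of 12 aged samples, with means of 6.64 in aged and 7.08 in young samples. Foxc1, a transcription factor of mural and meningeal cells, differed by -0.47 ± 0.19, and Smtn, next by p, by 0.39 ± 0.19. Smtn means were 6.47 in aged and 6.08 in young samples. Tbx18 and Smtn lay near or below the 6.80 that Xist reached, and whether they lay above background was not tested. Notch3, the mural Notch receptor, differed by 0.36 ± 0.14 between aged impaired and young, with an adjusted p of 0.21. These groups did not overlap, which held for 2.01% of all tested probe sets, and its second probe set differed by -0.15. All 12 basement membrane genes were tested and none was called, the lowest p over both aged groups being that of Hspg2, which encodes perlecan, with a difference from young of -0.25 ± 0.10, and of -0.06 on its second probe set. Between aged impaired and young the Hspg2 probe sets went opposite ways, at -0.19 and 0.18.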

How the data were processed

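The authors deposited probe set intensity from Affymetrix arrays on a linear scale; the submitters' processing notes name MAS5, and no build or setting. Each array was scaled to a mean of 500 (trimmed by 2% of values per tail) and log2(signal + 16) taken, which understates differences of dim probe sets. Control probe sets (64) and the 40% of lowest mean were left out, leaving 27022. Group means of all 18 samples were fitted with limma 3.58.1 (R 4.3.3), and slopes with those means as covariates. Tests were 2-sided, with Benjamini-Hochberg adjustment over all tested probe sets. The fits were tested on simulated data. Marker means were compared by exact permutation tests.

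A gene stands on its probe set of highest mean, named by the platform annotation updated through RefSeq (GRCm38.p6). Promoter windows came from RefSeq and matched 22 members. Full values are given for members called, for the 6 of lowest p in each comparison and for the member of highest mean in each role. The members and lists were chosen with earlier results of these data known. The labels do not say whether replicate numbers pair samples. Same-numbered samples correlated at -0.247 to 0.096 in their deviations, so no pairing was seen. Such correlations cannot show whether samples of the same number shared a batch. The number of arrays limits the precision, since an array has no read depth. Alternatives were normalization, offset, filter, array weights, the sample number as a block, marker covariates, the samples fitted and leaving out each sample.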

Additional observations from a re-analysis of the deposited data

Results flagged for a closer look

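Of 96 groups of 6 values, for the 32 genes in 3 groups, 2 held a sample far from the others by Dixon's criterion, which chance meets in about 1 of 20 groups. Tek, an angiopoietin receptor, was at 8.49 in aged unimpaired replicate 6, while the other 5 samples of that group lay between 7.81 and 7.998. Anpep, a pericyte aminopeptidase, was at 5.48 in aged impaired replicate 4, while the others lay between 6.32 and 6.69. Anpep was dim, with a mean level of 6.49, and whether it lay above background was not tested.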

How the results depend on the processing

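Over 28 named differences and 829 recomputed values, 775 kept their direction and side of the threshold, 42 lost a call, 10 gained one and 2 reversed, both of the shared Ly6c2 and Ly6c1 probe set. The shared Ly6c2 and Ly6c1 difference between the aged groups ranged from -0.0171 (without aged impaired replicate 1) to 0.1473 (without replicate 4) on leaving out 1 sample and was -0.0195 with array weights. Marker means were counted apart: the choroid plexus mean, aged impaired minus young, turned to 0.0125 with an offset of 1 and 0.0001 with quantile normalization, which also brought the oligodendrocyte mean past the threshold for aged impaired against each other group. The cause was not tested. Leaving out 1 sample gave 16 to 37 called probe sets for aged unimpaired against young, 228 to 467 for aged impaired and 116 to 274 for both. Members called then ranged from 1 to 2 for aged impaired against young, 0 to 1 for both aged groups, 1 to 2 on the choroid plexus slope and 0 to 1 on the fibroblast slope.

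With the sample number as a replicate block, calls between the aged groups fell to 0, and against young to 17 (aged unimpaired), 240 (aged impaired) and 141 (both); the fibroblast slope called 0 members, and the shared probe set was no longer called (adjusted p = 0.0635 and 0.0611). No sample was most like its own number. With only the groups compared the counts were 0, 22 and 241, with 0 members for aged impaired against young. Array weights gave 57 for aged unimpaired against young. No filter gave 13, 193 and 131 against young, with 0 members in the last 2 and on the fibroblast slope; a filter of 60% gave 6 between the aged groups. The fibroblast covariate gave 74, 1024 and 507 against young, with 3 members for aged impaired and 2 for both. Aged impaired against young had 2 members with the filter of 60%, an offset of 64 and quantile normalization, where Sox17 joined Slc2a1, and quantile normalization left 0 on the fibroblast slope. The 13 arrays of high choroid plexus signal, an alternative chosen after seeing the data, gave 14, 130 and 55 against young, 0 members for aged impaired and for both, 2 on the choroid plexus slope (Slco1c1 and Ocln) and 0 on the fibroblast slope.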
